A study of Mus musculus with 8 samples.

Results

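The 10 genes described here act outside the cell in Wnt signalling or report on it: the ligands Wnt2 and Wnt5a, the secreted inhibitors Sfrp1, Sfrp2, Sfrp4, Dkk2, Dkk3 and Wif1, the R-spondin Rspo3, and Axin2, a target gene of the pathway. They were chosen by name out of 31053 genes listed in the count files. All 10 were matched, and 7 of them passed the count filter of the edgeR test. Fibro/adipogenic progenitors (FAPs), mesenchymal cells that lie between the muscle fibres, were sorted from the hind limb muscles of mdx mice into a SCA1-High and a SCA1-Low cell state. Both states came from the same strain, C57BL/10ScSn-Dmdmdx/J, which carries a mutation in the dystrophin gene, and from mice 45 days old. Cells had been gated as negative for CD45, CD31 and Integrin alpha-7 and positive for SCA-1, and each state was then grown for 5 days in growth medium with serum before RNA was extracted. There were 4 SCA1-High-FAPs and 4 SCA1-Low-FAPs samples, isolated from 4 mice in all, and which samples share a mouse is not given in the sources used here. The series description names SCA1-Low-FAPs as the control, and fold changes are given for SCA1-Low-FAPs relative to SCA1-High-FAPs. No wild-type sample was analysed here, and the measurements describe cultured cells, not cells as they left the muscle.

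Wnt proteins are secreted lipid-modified ligands that bind Frizzled receptors and, for the canonical branch, the co-receptors Lrp5 and Lrp6, which leads to stabilised beta-catenin acting with TCF/LEF factors on target genes. Secreted Frizzled-related proteins and Wif1 bind Wnt proteins outside the cell, classical Dickkopf proteins bind the Lrp co-receptors, and R-spondins raise the number of receptors at the cell surface. Mesenchymal progenitors of muscle are known as a source of such factors, and Wnt signalling is known for its part in adipogenesis and fibrosis.

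Each library gave between 1880561 and 3985656 counts on genes, and levels are given as CPM, counts scaled to the size of the library. After 5 days of culture the mRNA of Ly6a, which encodes SCA-1, went against the sort: it was 711 ± 184 CPM (SD, n = 4) in SCA1-High-FAPs, against 1087 ± 58.8 CPM for SCA1-Low-FAPs (log2 fold change 0.61, edgeR adjusted p = 0.0341), so the names of the states below refer to the sort. The FAP markers Pdgfra, Cd34 and Col1a1 were present in all samples, and edgeR called none of them. Dcn, another FAP marker, was called higher in SCA1-High-FAPs, with a mean of 590 CPM against 140 CPM (edgeR adjusted p = 0.0167). Thy1 went the other way and was called higher in SCA1-Low-FAPs, with a mean of 429 CPM against 270 CPM (edgeR adjusted p = 0.0105). The FAP markers thus did not share a direction, and what this means for the results was not tested. The satellite cell markers Pax7, Myf5 and Myod1 and the leucocyte markers Adgre1 and Cd3e were at 0 counts in all 8 libraries. The satellite cell marker Itga7 had 0 to 18 counts and Cdh15 0 to 1, and the leucocyte markers Csf1r, Cd68 and Ptprc had 5 to 21, 0 to 14 and 0 to 1. The summed level of the 5 leucocyte markers was 4.24 to 10.9 CPM in SCA1-High-FAPs, against 2.72 to 10.6 CPM for SCA1-Low-FAPs, and their part in the results was not tested. Replicate 3 of SCA1-Low-FAPs was the highest sample of its state for several of the genes below, and results are given with and without it. It was singled out after these levels had been seen. Leaving out the highest SCA1-Low-FAPs sample lowers the mean of that state by construction. The share of counting entries recorded as not uniquely aligned also separated the states. It was 37.5% to 39.7% in SCA1-High-FAPs, against 40.8% to 43.3% for SCA1-Low-FAPs, and its part in the results was not tested.

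Among the 10 genes, the inhibitors Sfrp1 and Sfrp2 were the most abundant by mean CPM. For both, every SCA1-High-FAPs sample lay above every SCA1-Low-FAPs sample, and 14.1% of all genes tested did not overlap in either direction. The fitted level of Sfrp2 was 6.74-fold higher in SCA1-High-FAPs (95% interval of the log2 fold change -4.57 to -0.93). In the comparison of all 8 samples, 0 of the 7 tested genes were called by edgeR, where 7.68% of all genes tested were called, and DESeq2 called Sfrp1 and Sfrp2, where 8.53% were called. Once replicate 3 of SCA1-Low-FAPs was left out, edgeR called Sfrp1, Sfrp2 and Rspo3, beside 9.85% of all genes tested. That replicate was singled out after its levels had been seen, and leaving out any other single sample gave 0 calls. Wnt5a, the only ligand of 19 in the genome's Wnt family with more than 3 counts in every sample, had a 95% interval that leaves out a 2-fold difference. Axin2 was at the limit of detection in both.

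The upstream sequences of Sfrp2, the gene with the largest fold change among the 7 tested, and of the target gene Axin2 are shown first, since the TCF/LEF core motif was looked for in them. They are the 250 bases before the transcription start in RefSeq (build GRCm38.p6), 5′ to 3′ on the plus strand, with each CpG dinucleotide in capitals. The Sfrp2 stretch is chr3:83766071-83766320 and holds 16 CpG dinucleotides, and the Axin2 stretch is chr11:108920099-108920348 and holds 24.
Sfrp2: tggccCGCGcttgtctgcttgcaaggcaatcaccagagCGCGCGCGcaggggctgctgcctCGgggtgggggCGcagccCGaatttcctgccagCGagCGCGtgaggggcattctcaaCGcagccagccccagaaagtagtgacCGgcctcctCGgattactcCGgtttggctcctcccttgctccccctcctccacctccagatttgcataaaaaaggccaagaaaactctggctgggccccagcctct
Axin2: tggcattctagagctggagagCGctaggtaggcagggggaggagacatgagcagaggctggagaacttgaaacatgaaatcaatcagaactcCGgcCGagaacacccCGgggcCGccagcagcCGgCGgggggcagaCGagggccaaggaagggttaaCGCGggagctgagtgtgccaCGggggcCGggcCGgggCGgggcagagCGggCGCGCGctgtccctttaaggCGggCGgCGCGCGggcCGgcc

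Promoter windows of 300 bases (250 before and 50 after the start) were matched for 5 of the 10 genes, Sfrp2, Dkk2, Wif1, Wnt2 and Axin2. The TCF/LEF core was searched as ATCAAAG and its reverse complement CTTTGAT, and it was found in none of the 5 windows. Of all 32851 promoter windows, 3.73% held it. Over the full window, the number of CpG dinucleotides was 11 for Dkk2, 22 for Sfrp2, 25 for Wif1, 27 for Wnt2 and 31 for Axin2, each above the median of 7 over all windows. A match or its absence concerns only these letters in this window.

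Sfrp1 (ENSMUSG00000031548, chromosome 8, 23411502 to 23449632, plus strand of GRCm38), a secreted Frizzled-related protein that binds Wnt ligands, ranked 26th by mean CPM among the 10181 genes tested. In SCA1-High-FAPs it was at 3271, 3139, 5702 and 3124 CPM in replicates 1 to 4, while the SCA1-Low-FAPs samples were at 924, 1393, 2635 and 901 CPM. The groups did not overlap, replicate 3 was the highest sample in both states, and the mean was 3809 ± 1264 CPM (SD, n = 4) against 1463 ± 813 CPM. The fitted level was higher in SCA1-High-FAPs (log2 fold change of SCA1-Low-FAPs relative to SCA1-High-FAPs -1.38, SE 0.39, 95% interval -2.26 to -0.50), which did not pass the threshold in edgeR's quasi-likelihood test (adjusted p = 0.0687). Without replicate 3 of SCA1-Low-FAPs the log2 fold change was -1.84 and the adjusted p 0.000221. DESeq2 called the gene on all 8 samples, with an adjusted p of 0.0201.

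Sfrp2 (ENSMUSG00000027996, chromosome 3, 83766321 to 83774316, plus strand) is another secreted Frizzled-related protein. In SCA1-High-FAPs its level was 2096, 1345, 2080.4 and 1893 CPM in replicates 1 to 4, while the SCA1-Low-FAPs samples were at 73.0, 212, 693 and 118 CPM. The lowest SCA1-High-FAPs sample was thus above the highest SCA1-Low-FAPs sample, and the SCA1-Low-FAPs samples were spread widely, with a coefficient of variation of 104% against 18.9% in SCA1-High-FAPs. The fitted level was 6.74-fold higher in SCA1-High-FAPs (log2 fold change -2.75, SE 0.75, 95% interval -4.57 to -0.93), and the edgeR adjusted p was 0.0868. The biological coefficient of variation fitted for Sfrp2, 0.67, was higher than that of 99.0% of the tested genes. Without replicate 3 of SCA1-Low-FAPs the remaining 3 samples averaged 135 ± 71.1 CPM, the log2 fold change was -3.80 and the adjusted p 0.000115. DESeq2 on all 8 samples gave an adjusted p of 0.00225.

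The antisense gene Gm26771 overlaps Sfrp2 on the opposite strand. Whether the counting used strand is not given in the sources used here. How reads in the stretch that Sfrp2 and its antisense partner share were assigned is therefore not known. Gm26771 held 136 counts over the 8 libraries, against 20745 for Sfrp2. The antisense genes that overlap Wnt5a, Rspo3 and Axin2 were at 0 counts.

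**Figure D1:**
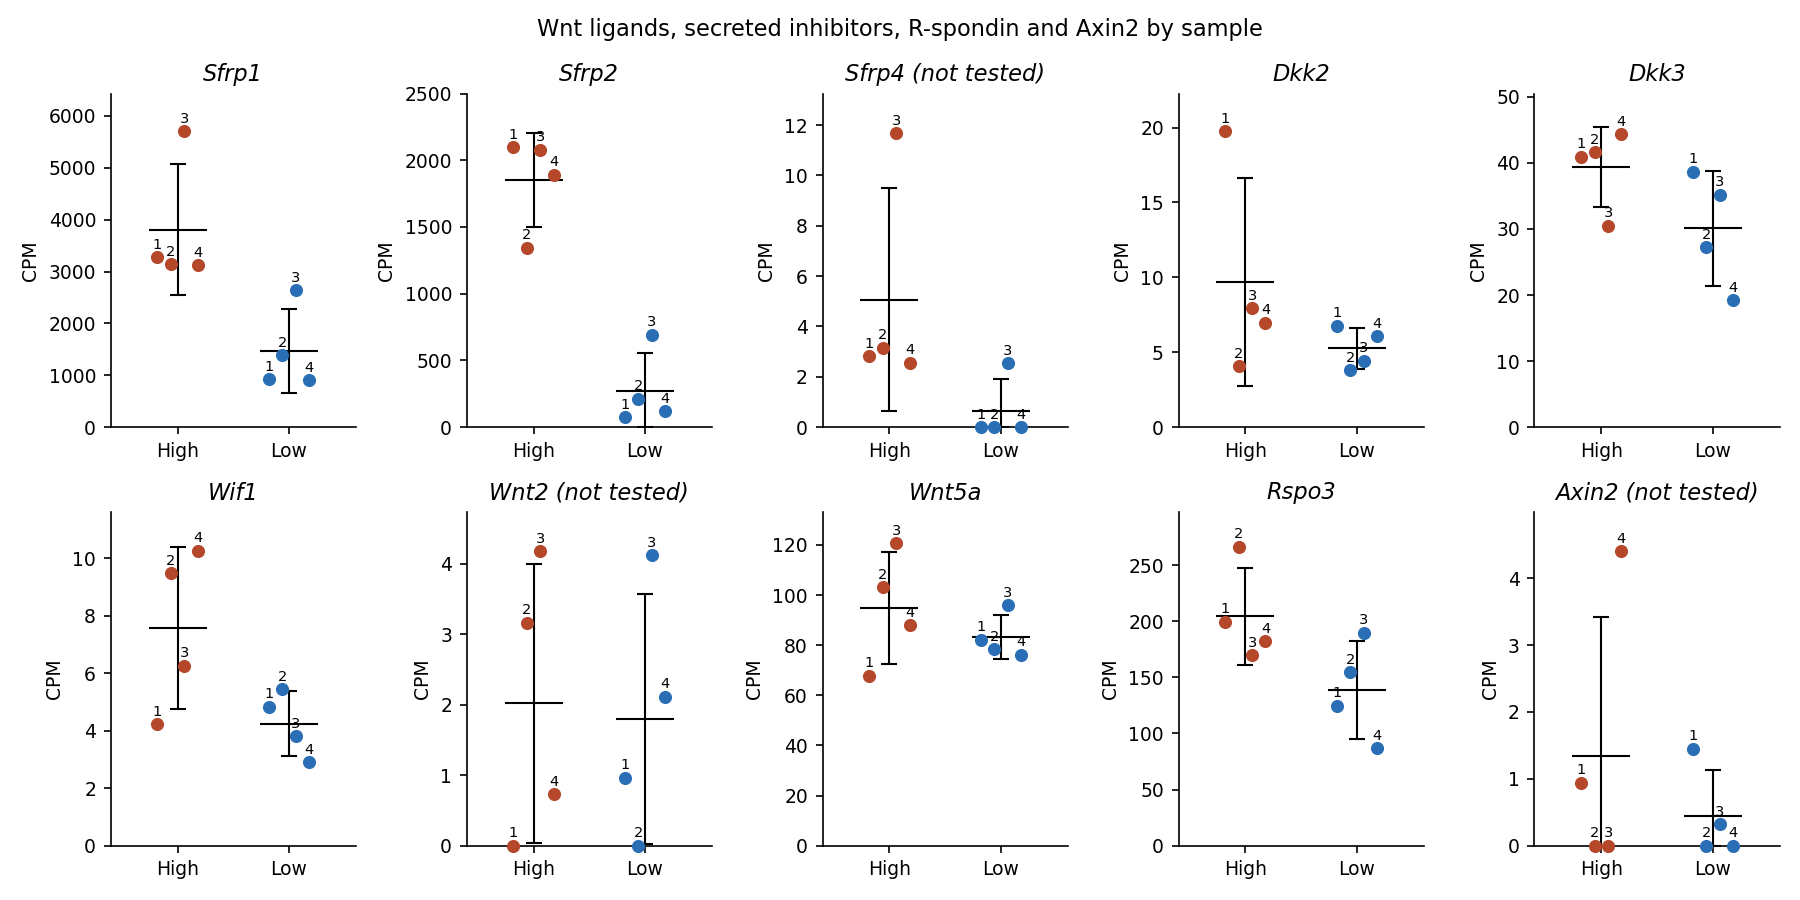
Level of each of the 10 genes in every sample. The y axis is CPM, which starts at 0 and has its own range in each panel, points are samples with their replicate number (red, SCA1-High-FAPs, and blue, SCA1-Low-FAPs), the horizontal line is the mean of 4 samples and the bar is 1 SD, stopped at 0. Sfrp1 and Sfrp2 show no overlap between the states, and Sfrp4, which was not tested, is parted only by 2.54 against 2.57 CPM. Replicate 3 is the highest SCA1-Low-FAPs sample for Sfrp1, Sfrp2, Sfrp4, Wnt2, Wnt5a and Rspo3.

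Because Sfrp1 and Sfrp2 differed by unlike amounts, their proportion was not the same in the states. The ratio of Sfrp1 to Sfrp2 counts was 1.56, 2.33, 2.74 and 1.65 in SCA1-High-FAPs, against 12.7, 6.56, 3.80 and 7.62 for SCA1-Low-FAPs. This ratio does not depend on the scaling of the libraries, the groups did not overlap, and it stayed above that of every SCA1-High-FAPs sample in replicate 3 of SCA1-Low-FAPs. It was computed after the values of both genes had been seen and was given no test. Together the pair made up 93.7% ± 1.84 of the counts of the 10 genes in SCA1-High-FAPs, against 85.0% ± 4.74 for SCA1-Low-FAPs.

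Sfrp4 (chromosome 13, 19623104 to 19632994, plus strand), the third member of this inhibitor family in the list, was below the count filter of the edgeR test. It had 6, 7, 28 and 7 counts in SCA1-High-FAPs, against 0, 0, 8 and 0 counts for SCA1-Low-FAPs. The only SCA1-Low-FAPs sample with counts was again replicate 3, at 2.54 CPM, just under the lowest SCA1-High-FAPs sample at 2.57 CPM. A count of 0 allows up to 3 counts, or 0.792 to 1.63 CPM in the libraries at 0, and this floor covers counting error only. DESeq2, which gave all 10 genes an adjusted p, did not call Sfrp4 (adjusted p = 0.104), and nor did edgeR without a filter beyond 1 count (adjusted p = 0.0953).

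The summed level of adipocyte markers, genes of mature fat cells, was higher in SCA1-High-FAPs, as were the mean levels of the inhibitors Sfrp1, Sfrp2 and Sfrp4. Of 5 markers, Adipoq, Plin1, Cfd and Fabp4 were detected and Lep was at 0 counts in all 8 libraries. Adipoq was called higher in SCA1-High-FAPs, while Plin1, Cfd and Fabp4 were not called (edgeR adjusted p = 0.0751, 0.0534 and 0.101). The summed level of the 5 markers was 1022 to 5358 CPM in SCA1-High-FAPs, against 109 to 622 CPM for SCA1-Low-FAPs. Replicate 3 of SCA1-Low-FAPs was the highest of its state for this sum, at 622 CPM against 109 to 229 CPM in the 3 others. It was also the highest for Sfrp1, Sfrp2, Sfrp4, Rspo3, Wnt5a and Wnt2, and for 62.4% of the 444 genes called higher in SCA1-High-FAPs. Within SCA1-High-FAPs the order was shared in part. Replicate 4 had the lowest marker sum, 1022 CPM, and the lowest Sfrp1 (3124 CPM) and Sfrp4 (2.57 CPM). Sfrp2 was lowest in replicate 2, at 1345 CPM against 1893 CPM in replicate 4. The marker sum was highest in replicate 1, as was Sfrp2, whereas Sfrp1 and Sfrp4 were highest in replicate 3. The part of adipogenic cells in the levels of these inhibitors was not tested, and in bulk samples fewer cells of a type cannot be told apart from less RNA per cell. Of the 5 markers of pericytes and smooth muscle cells, Cspg4 and Myh11 were called higher in SCA1-Low-FAPs, whereas Rgs5 (3.28 against 1.91 CPM) and Mcam (5.58 against 2.47 CPM) had the higher mean in SCA1-High-FAPs and Kcnj8 was at 0 counts in 6 libraries. The sum of the 5 was 12.7 to 32.0 CPM in SCA1-High-FAPs, 49.9 to 63.2 CPM in 3 SCA1-Low-FAPs samples and 21.6 CPM in replicate 3, and their part was not tested either.

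**Figure D2:**
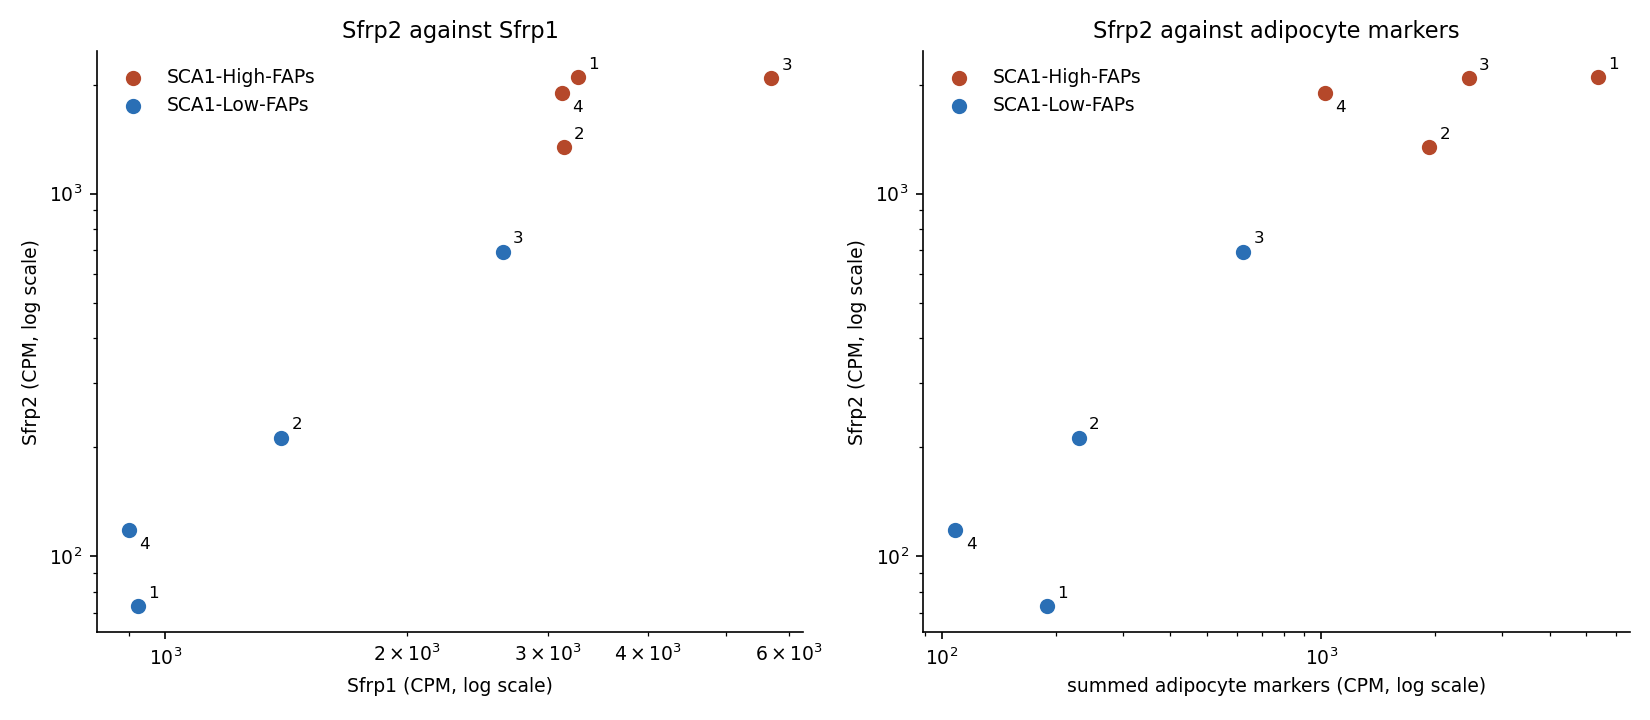
Sfrp2 against Sfrp1 (left) and against the sum of 5 adipocyte markers (right), each point being 1 sample labelled with its replicate number and all axes CPM on a log scale. Replicate 3 of SCA1-Low-FAPs (blue) lies between the other 3 samples of its state and the SCA1-High-FAPs samples (red) in both panels, at 693 CPM of Sfrp2.

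The other inhibitors were present at much lower levels and overlapped between the states. Dkk3 (chromosome 7, 112116017 to 112159057, minus strand), a divergent Dickkopf protein, was at 41.0, 41.6, 30.5 and 44.4 CPM in SCA1-High-FAPs, against 38.7, 27.2, 35.2 and 19.3 CPM for SCA1-Low-FAPs. Its log2 fold change was -0.39 (SE 0.26, 95% interval -0.94 to 0.15, edgeR adjusted p = 0.424). The interval spans 0 and reaches a difference of almost 1 on the log2 scale, so a change of moderate size in Dkk3 was not detectable with these samples.

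Dkk2 (chromosome 3, 132085292 to 132180304, plus strand), a Dickkopf protein that binds Lrp co-receptors, was at 19.8, 4.07, 7.93 and 6.97 CPM in SCA1-High-FAPs, against 6.77, 3.81, 4.44 and 6.07 CPM for SCA1-Low-FAPs. Only replicate 1 of SCA1-High-FAPs exceeded 10 CPM. The log2 fold change was -0.86 (SE 0.54, 95% interval -2.00 to 0.28, edgeR adjusted p = 0.399), and with 7 to 42 counts per library the interval was wide. Leaving out replicate 1 of SCA1-High-FAPs brought the estimate to -0.25.

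Wif1 (chromosome 10, 121033960 to 121100650, plus strand), which binds Wnt ligands through its WIF domain, was at 4.24, 9.49, 6.26 and 10.3 CPM in SCA1-High-FAPs, against 4.83, 5.44, 3.81 and 2.90 CPM for SCA1-Low-FAPs. Replicates 2, 3 and 4 of SCA1-High-FAPs were above all SCA1-Low-FAPs samples and replicate 1 was not. The log2 fold change was -0.86 (SE 0.54, 95% interval -1.98 to 0.27, edgeR adjusted p = 0.393), on 9 to 28 counts per library.

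Summed over the 6 inhibitors, the level was 5724 ± 1457 CPM in SCA1-High-FAPs, against 1778 ± 1100 CPM for SCA1-Low-FAPs, a sum that Sfrp1 and Sfrp2 make up almost alone. The 2 ligands of the list summed to 96.9 ± 24.4 CPM and 85.0 ± 10.4 CPM. These levels are counts of reads from transcript ends, which were not divided by gene length because the libraries read each transcript near its 3′ end.

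Wnt5a (ENSMUSG00000021994, chromosome 14, 28504750 to 28527448, plus strand), a ligand best known for signalling that does not pass through beta-catenin, was the main Wnt transcript of both states. It was at 67.8, 103, 121 and 88.0 CPM in SCA1-High-FAPs, against 82.2, 78.4, 96.1 and 76.3 CPM for SCA1-Low-FAPs. The ranges overlapped, and both the lowest and the highest samples were SCA1-High-FAPs. The log2 fold change was -0.19 (SE 0.19, 95% interval -0.59 to 0.21, edgeR adjusted p = 0.630), so the interval leaves out a 2-fold difference in either direction. Wnt5a took 77.1% ± 4.17 of the counts of all 19 Wnt ligands in SCA1-High-FAPs, against 83.8% ± 5.48 for SCA1-Low-FAPs.

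Wnt2 (chromosome 6, 17988940 to 18030585, minus strand), a ligand of the canonical branch, had 0, 7, 10 and 2 counts in SCA1-High-FAPs, against 2, 0, 13 and 8 counts for SCA1-Low-FAPs, and was below the count filter. Each state had a library at 0 and a library at 10 or more counts, so no difference was detectable at this depth. Of the 17 Wnt ligands outside the list, 8 were at 0 counts in all samples and only Wnt16 was tested. Wnt16 was at 5.18, 8.59, 15.9 and 20.9 CPM in SCA1-High-FAPs, against 1.93, 1.63, 12.4 and 3.17 CPM for SCA1-Low-FAPs (log2 fold change -1.35, SE 0.62, edgeR adjusted p = 0.220), with replicate 3 once more the highest SCA1-Low-FAPs sample. Leaving that replicate out, Wnt16 no longer overlapped between the states and was called (log2 fold change -2.43, edgeR adjusted p = 0.0223). Porcn and Wls, which acylate Wnt proteins and carry them to the surface, were both tested and neither was called, and Wls, the more abundant, was at 206 ± 25.2 CPM and 196 ± 28.1 CPM.

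Rspo3 (ENSMUSG00000019880, chromosome 10, 29452416 to 29535867, minus strand), an R-spondin that strengthens Wnt signals through Lgr receptors and the ligases Rnf43 and Znrf3, was at 199.6, 266, 169.5 and 182 CPM in SCA1-High-FAPs. In SCA1-Low-FAPs it was at 125, 155, 189.7 and 86.9 CPM. Only replicate 3 of SCA1-Low-FAPs reached the range of the SCA1-High-FAPs. The log2 fold change was -0.56 (SE 0.21, 95% interval -1.01 to -0.10), with an unadjusted p of 0.0190 and an adjusted p of 0.131 in edgeR over all genes tested. Without replicate 3 of SCA1-Low-FAPs the log2 fold change was -0.76 and the adjusted p 0.0296, while DESeq2 on all 8 samples gave an adjusted p of 0.127.

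Rspo2, another R-spondin (chromosome 15, 43020794 to 43170826, minus strand), lay outside the list and gave the clearest difference among the secreted regulators. It was at 58.9, 55.2, 51.4 and 58.7 CPM in SCA1-High-FAPs, against 10.2, 7.08, 11.7 and 8.45 CPM for SCA1-Low-FAPs. The spread within each state was far smaller than the gap between them, and Rspo2 was 5.92-fold higher in SCA1-High-FAPs (log2 fold change -2.57, SE 0.25, edgeR adjusted p = 5.37e-05). It was called in all 8 comparisons that left out 1 sample. The 2 R-spondins stood in different proportions, with 3.11 to 4.83 times as many reads of Rspo3 as of Rspo2 in SCA1-High-FAPs, against 10.3 to 21.8 times as many for SCA1-Low-FAPs, a ratio looked at after the values were known.

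Axin2 (chromosome 11, 108920349 to 108950783, plus strand), a scaffold of the beta-catenin destruction complex that canonical Wnt signals induce, had 2, 0, 0 and 12 counts in SCA1-High-FAPs, against 3, 0, 1 and 0 counts for SCA1-Low-FAPs. It exceeded 3 counts in 1 of 8 libraries, replicate 4 of SCA1-High-FAPs, and was below the count filter. At 1.34 ± 2.09 CPM and 0.442 ± 0.689 CPM, the states could not be told apart at this depth.

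Across the list, the count of called genes was 0 of 7 tested at an adjusted p below 0.05 and an absolute log2 fold change above 0.5 in edgeR, where 7.68% of all 10181 genes tested were called. At an unadjusted p below 0.05 there were 3, Sfrp1, Sfrp2 and Rspo3, against 21.3% of all genes. DESeq2 on the same samples called 2, Sfrp1 and Sfrp2, against 8.53% of all genes. Groups that did not overlap were found for 2 of the 7, Sfrp1 and Sfrp2, against 14.1% of the tested genes. The log2 fold change was below 0, the direction of higher levels in SCA1-High-FAPs, for all 7, against 50% of all genes, with a median of -0.86 beside 0.00029 over all genes tested. Without replicate 3 of SCA1-Low-FAPs, 3 of 7 were called against 9.85% of all genes, and 3 of 7 did not overlap against 21.5%. Replicate 3 was the highest SCA1-Low-FAPs sample in 4 of the 7 tested genes, against 25.5% of all genes tested and 62.4% of the 444 genes called higher in SCA1-High-FAPs.

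**Figure D3:**
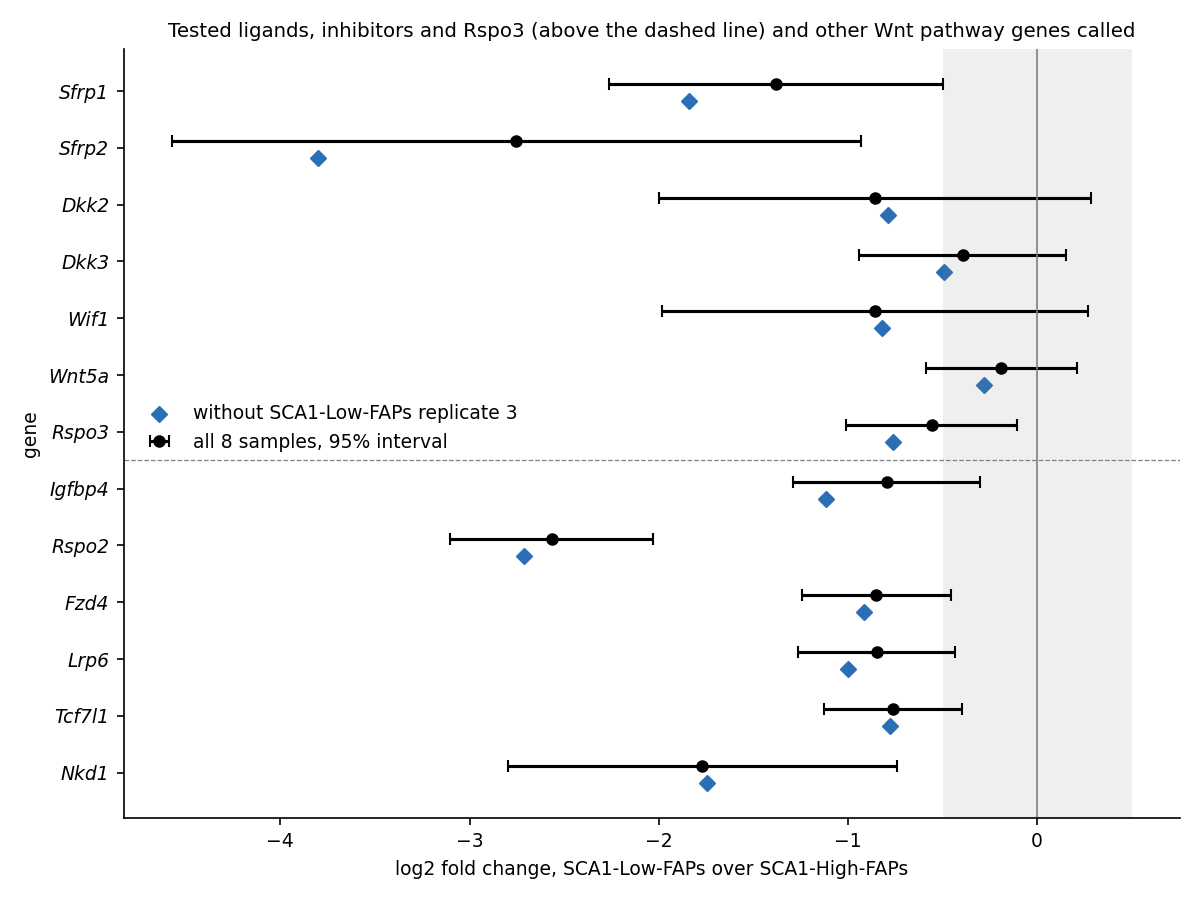
Log2 fold change of SCA1-Low-FAPs relative to SCA1-High-FAPs for the 7 tested genes of the list and, under the dashed line, for the 6 other Wnt pathway genes that were called. Black points and bars are the edgeR estimate and its 95% interval on all 8 samples, blue diamonds are the estimate without replicate 3 of SCA1-Low-FAPs, and the grey band marks absolute values under 0.5. All estimates lie below 0, and leaving out that replicate moved Sfrp2 from -2.75 to -3.80.

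In order of level, the 10 genes ran Sfrp1, Sfrp2, Rspo3, Wnt5a, Dkk3, Dkk2, Wif1, Sfrp4, Wnt2 and Axin2 in SCA1-High-FAPs. The first 5 each lay above the next gene beyond the range of the 4 samples, and from Dkk2 downwards neighbours overlapped. In SCA1-Low-FAPs the order was the same down to Wif1, but the range of Sfrp2 now overlapped that of Rspo3, and that of Rspo3 overlapped that of Wnt5a. The scale is CPM, and the order describes reads from transcript ends.

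Of the 86 other Wnt pathway genes listed, 49 were tested, and edgeR called 6 higher in SCA1-High-FAPs. In the opposite direction it called 0, with 1 at an unadjusted p below 0.05, and DESeq2 also called 0. Ccn4, a target gene of the pathway named here after its values were seen, was called higher in SCA1-Low-FAPs by edgeR without a filter beyond 1 count (log2 fold change 0.72, adjusted p = 0.0188) and without replicate 2 of SCA1-High-FAPs (1.00, adjusted p = 0.0156), against 0.70 and an adjusted p of 0.103 in the comparison as reported. The share called among all genes tested was 4.36% in the first direction and 3.32% in the second. The median log2 fold change of the 49 was -0.24. Among these lists, the secreted regulators had the most negative median with more than 1 gene tested, -0.82 over 5 tested genes, of which 2 were called, Rspo2 and Igfbp4.

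Igfbp4, a binding protein of insulin-like growth factors that has also been described as a Wnt inhibitor, was at 4087, 3372, 4312 and 4046 CPM in SCA1-High-FAPs, against 1679.7, 2364, 3597 and 1471 CPM for SCA1-Low-FAPs. Replicate 3 of SCA1-Low-FAPs reached the SCA1-High-FAPs range. The log2 fold change was -0.80 (SE 0.23, edgeR adjusted p = 0.0498), a call that was lost in 7 of 8 comparisons that left out 1 sample, where the adjusted p was 0.0593 to 0.148, and kept at 0.000661 without that replicate.

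Among the 23 receptors and co-receptors, 16 were tested and 2 were called, Fzd4 and Lrp6, against 7.68% of all genes tested. Fzd4, a Frizzled receptor, was at 297 ± 89.8 CPM in SCA1-High-FAPs, against 165 ± 14.6 CPM for SCA1-Low-FAPs (log2 fold change -0.85, SE 0.19, edgeR adjusted p = 0.00953), and Lrp6, the canonical co-receptor, at 289.7 ± 43.8 CPM and 161 ± 47.9 CPM (log2 fold change -0.85, SE 0.20, edgeR adjusted p = 0.0131). Neither gene overlapped between the states. The call of Lrp6 was lost without replicate 1 of SCA1-Low-FAPs, with an adjusted p of 0.0591. The most abundant gene of this list, the Wnt receptor Ryk, was at 344 ± 103 CPM and 369 ± 49.5 CPM and was not called.

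Of the 22 cytoplasmic and nuclear transducers, 20 were tested and 1 was called, against 7.68% of all genes tested. This was Tcf7l1, a TCF factor mostly known as a repressor, at 122, 108, 172 and 139.7 CPM in SCA1-High-FAPs, against 77.3, 86.6, 80.2 and 75.5 CPM for SCA1-Low-FAPs (log2 fold change -0.76, SE 0.17, edgeR adjusted p = 0.0112). The groups did not overlap. The kinase Csnk1a1, the most abundant transducer, was at 512 ± 39.2 CPM and 499 ± 40.7 CPM.

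Of the 15 other common targets of the pathway, 7 were tested and 1 was called, against 7.68% of all genes tested. The median log2 fold change of the 7 was 0.10. Nkd1, an inhibitor of Dishevelled that is itself induced by canonical signals, was called higher in SCA1-High-FAPs, at 11.8, 23.1, 7.10 and 19.1 CPM against 7.25, 3.81, 4.12 and 2.90 CPM (log2 fold change -1.77, SE 0.49, edgeR adjusted p = 0.0331). Replicate 3 of SCA1-High-FAPs and replicate 1 of SCA1-Low-FAPs overlapped. Its call was lost in 5 of the 8 comparisons that left out 1 sample, without replicates 2 and 4 of SCA1-High-FAPs and replicates 2, 3 and 4 of SCA1-Low-FAPs, where the adjusted p was 0.0548 to 0.118. Ccnd1, a cyclin of the cell cycle and the most abundant gene of this list, had its higher mean in SCA1-Low-FAPs, at 173 ± 85.3 CPM against 77.6 ± 50.3 CPM (log2 fold change 1.16, SE 0.58, edgeR adjusted p = 0.319), and the groups overlapped.

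**Figure D4:**
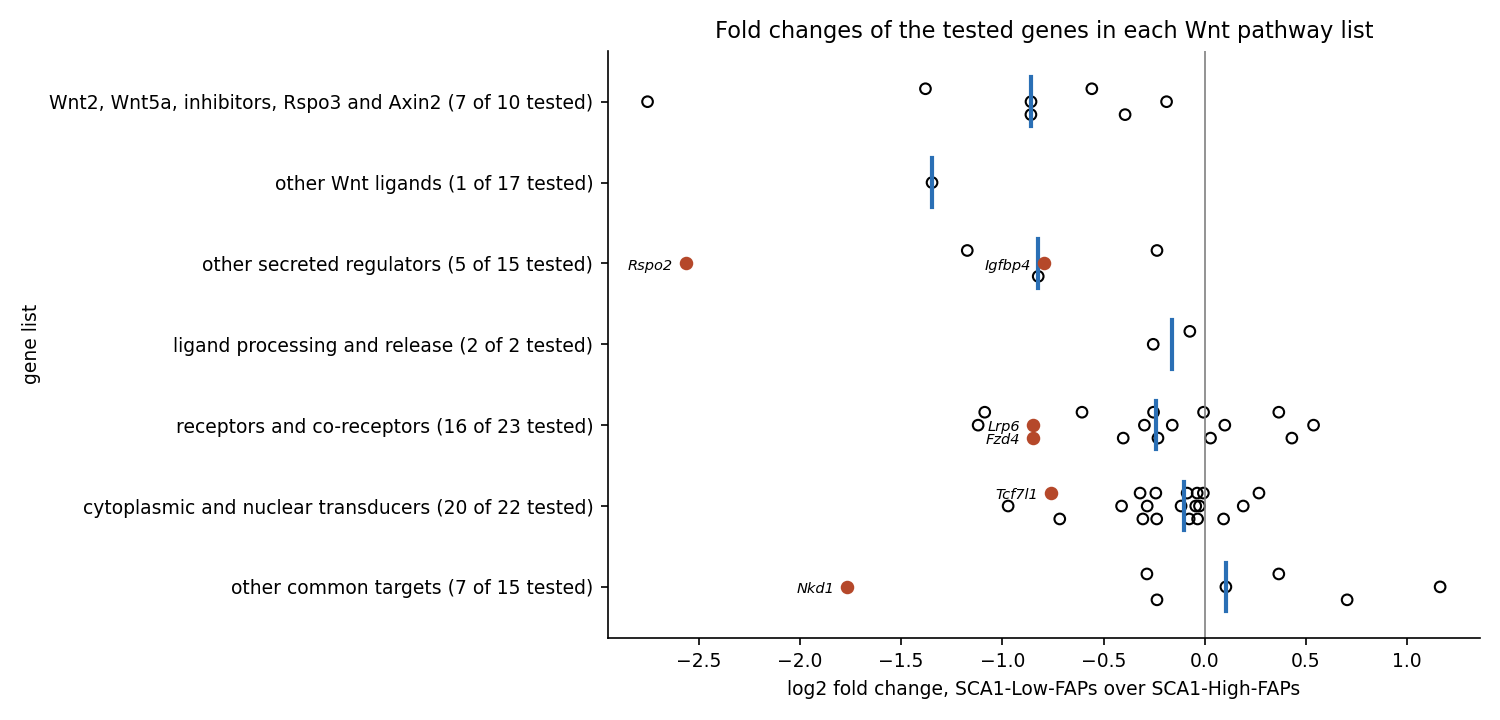
Log2 fold change of SCA1-Low-FAPs relative to SCA1-High-FAPs for the tested genes of each Wnt pathway list. Each point is a gene, filled red and named where it was called by edgeR, the blue line is the median of the list, and a gene in 2 lists is drawn in both. The secreted regulators have a median of -0.82 and the transducers of -0.10, and no filled point lies above 0.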

How the data were processed

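QuantSeq 3′ mRNA libraries of 8 samples (4 per cell state) were analysed. Following the study's methods and the submitters' processing notes, the authors trimmed reads, aligned them with STAR 2.6.0a to mm10 (GRCm38) and deposited raw counts per gene from HTSeq 0.9.15 with Ensembl release 93. Multiply aligned reads were not counted on genes, so genes with near-identical copies may be undercounted. The HTSeq entry for alignments that are not unique held 37.5% to 43.3% of all entries of each library, which need not equal a share of reads. Of 31053 gene identifiers, 30934 were given a symbol and a GRCm38 position from GENCODE. From the counts, CPM on TMM-scaled library sizes were computed, and the 2 cell states were compared by edgeR 4.0.16 (quasi-likelihood test, robust, filterByExpr with a minimum count of 10), with Benjamini-Hochberg adjustment over the 10181 genes tested. Genes with an adjusted p below 0.05 and an absolute log2 fold change above 0.5 were called. DESeq2 1.42.0 was an alternative, beside RLE scaling, other filters, a replicate block, a threshold of 0.01 and leaving out each sample. In data simulated for this comparison on 10181 genes with trended dispersion, edgeR called 89 of 100 genes changed 4-fold and 47 of 100 changed 2-fold, with 1 false call, and with gene-wise dispersion it called 84 and 39, with 7 false calls. Named pathway genes are those called and the most abundant gene of each list. The 10 genes and all lists were chosen with earlier results of these data known. Which samples came from the same mouse is not given in the sources used here. The comparison as reported treated the 8 samples as independent, although they came from 4 mice, and p-values measure the spread between these samples.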

Additional observations from a re-analysis of the deposited data

Results flagged for a closer look

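In each group of 4 samples, the highest or the lowest sample was picked out where its gap to the nearest other sample took up more of the group's range than Dixon's 95% critical value. Of 32 groups examined (the 10 genes of the list and the 6 other called Wnt pathway genes, in each state), 3 held such a sample, and chance picks out about 1 in 20 groups. Sfrp1 in replicate 3 of SCA1-High-FAPs was at 5702 CPM, against 3124 to 3271 CPM in the other samples of that state. Sfrp4 in the same library was at 11.7 CPM (28 counts), against 2.57 to 3.16 CPM. Sfrp4 in replicate 3 of SCA1-Low-FAPs was at 2.54 CPM (8 counts), with 0 counts in the 3 other samples. Any count above 0 would have been picked out there, so the rate of 1 in 20 does not apply to it. Without replicate 3 of SCA1-High-FAPs the log2 fold change of Sfrp1 was -1.12, against -1.38 with all samples.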

How the results depend on the processing

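The number of called genes in the list depended on the setting, from 0 of 7 in the comparison as reported. It was 2 of 10 with DESeq2 (Sfrp1 and Sfrp2), 1 of 10 without a filter beyond 1 count (Rspo3, against 6.63% of all genes), and 0 with RLE size factors, with at least 10 counts in every sample (5 genes tested) and at a threshold of 0.01. Leaving out each sample gave 0 to 3, and the count was above 0 only without replicate 3 of SCA1-Low-FAPs. Samples with the same replicate number did not deviate together (correlations -0.050 to 0.0067, other pairs -0.28 to 0.25, and 0 of 8 samples correlated best with its own number), and no source used here ties a number to a mouse, so the numbers were not taken as pairs. With the replicate block the count was 1 of 7 in edgeR (Sfrp1, log2 fold change -1.48, adjusted p = 0.00047, against 6.85% of all genes) and 3 of 9 in DESeq2 (Sfrp1, Sfrp2 and Sfrp4, against 6.88%). The other Wnt pathway genes called were 6 as reported, 2 at a threshold of 0.01 (Fzd4 and Rspo2) and 4 to 9 otherwise, including 8 with the replicate block in edgeR and in DESeq2. Under the block Ccnd1 was called higher in SCA1-Low-FAPs (log2 fold change 1.25, adjusted p = 0.0107 in edgeR and 0.000241 in DESeq2), and the call of Nkd1 was lost (adjusted p = 0.0893 and 0.0699). Over all genes, 782 were called as reported, 410 to 1017 when each sample was left out (410 without replicate 4 and 417 without replicate 1 of SCA1-Low-FAPs) and 1065 with DESeq2. Non-overlapping groups were found for 6 of the 49 other pathway genes tested, against 14.1% of all genes tested. Without replicate 3 of SCA1-Low-FAPs, an alternative chosen after seeing the data, it was 11 of the 49, against 21.5% of all genes. The direction of the 7 tested genes and of the 6 called pathway genes held under every alternative run. All 40 mean levels under other library scalings moved by less than 1 SD. Depth limits Sfrp4, Wnt2 and Axin2, and protein sequences were not used here.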
